A study of Mus musculus with 11 samples.

Results

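The genes described here were 10 members of the mitochondrial cell death machinery and its brakes, taken by name: the anti-apoptotic Bcl2, Bcl2l1, Bcl2l2 and Mcl1, the pore-forming Bak1, the BH3-only genes Bcl2l11, Bad and Bid, and the inhibitors of apoptosis Xiap and Birc2. The rule for naming them used no measured value, but they were chosen with earlier results of these data known. They are 10 of the 48709 genes in the count tables. A gene was tested if 50% or more of the samples held 5 or more counts of it, which all 10 did, as did 17365 genes in all. The smallest count of a member in any sample was 112 (Bcl2l11) and the largest was 5554, so none of the 10 was read near the limit of detection.

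RNA was sequenced from primary hippocampal neurons of embryonic day 17 CD1 mice, an outbred strain. At day 10 in vitro the cultures received lipid nanoparticles that carried either a negative control oligonucleotide (control, 6 samples) or a synthetic mimic of mouse miR-181a-5p (mimic, 5 samples), and RNA was taken 48 h later, at day 12 in vitro. No gene was deleted or altered in either group, and each culture preparation pooled the hippocampi of several embryos. Both groups received nanoparticles, and the paper's methods list ApoE4 as given along with them. The labels did not say whether the samples came from separate cultures, so the p-values measure the spread between these samples, which may be technical.

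The BCL2 family decides whether the outer mitochondrial membrane stays closed. Its anti-apoptotic proteins hold the effectors BAX and BAK in check, BH3-only proteins relieve that restraint or activate the effectors, and once the effectors form pores, cytochrome c and SMAC leak out and caspases are activated, which XIAP and its relatives counteract. Neurons do not divide, and after they mature they keep this pathway under tight restraint. MicroRNAs pair through their seed with sites in messenger RNAs, most often within the 3' UTR (the untranslated stretch after the stop codon), and lower the level or the translation of those RNAs. Several BCL2 family genes are known as candidate targets of the miR-181 family in other cells.

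The sequences of the 2 oligonucleotides show what the comparison rests on. Capitals mark the seed, bases 2 to 8 from the 5' end. The mimic is identical to mature mmu-miR-181a-5p in RefSeq (GRCm38.p6), and miR-181b, miR-181c and miR-181d share its seed. The control oligonucleotide has another seed.
miR-181a-5p mimic: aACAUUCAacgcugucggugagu
negative control: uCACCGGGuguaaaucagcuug
mmu-miR-181b-5p: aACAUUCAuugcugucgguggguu
mmu-miR-181c-5p: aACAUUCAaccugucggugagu
mmu-miR-181d-5p: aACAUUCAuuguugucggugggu

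The longest annotated 3' UTR of each member was searched, on the transcript's strand, for the complement of that seed. The search counted an 8-base match (TGAATGTA), a 7-base match to bases 2 to 8 (TGAATGT), a 7-base match to bases 2 to 7 followed by A (GAATGTA) and a 6-base match (GAATGT), each stretch being counted once as its longest kind. Of the 14512 tested genes with an annotated 3' UTR, whose median length was 1374 bases, 6.2% held an 8-base match and 24.8% a match of 7 or 8 bases. Of the 10 members, Bcl2 and Bcl2l11 held an 8-base match, and 5 (Bcl2, Bcl2l1, Mcl1, Bcl2l11 and Xiap) held a match of 7 or 8 bases. Bcl2, Mcl1, Bcl2l11 and Xiap, 4 of the 10, were also among the predicted miR-181a-5p targets listed by the study. Several BCL2 family genes were already known as candidate targets, so the members are not a neutral sample of genes. The difference between these shares and those of all tested genes was not tested. No member held the 7-base match of the control oligonucleotide (CCCGGTG), which 3.36% of the tested genes held. The windows below show the sites of 7 or 8 bases (capitals) with the bases around them, in GRCm38, each read 5' to 3' on the strand of its gene.
Bcl2, 8-base match, chr1:106539828-106539857, minus strand: gggattataataatcaggacTGAATGTAga
Bcl2, 7-base match, chr1:106541775-106541804, minus strand: agagagaataaaaagtttcagGAATGTAtg
Bcl2, 7-base match, chr1:106541550-106541579, minus strand: cattcatctgtattaacgttgGAATGTAct
Bcl2l1, 7-base match, chr2:152781533-152781562, minus strand: ccaaaacccccacttgtggtcTGAATGTtc
Mcl1, 7-base match, chr3:95662511-95662540, plus strand: aggcaggaatcaaatgactaaGAATGTAat
Bcl2l11, 8-base match, chr2:128158528-128158557, plus strand: ttttcagtaaatatttgttgTGAATGTAaa
Xiap, 7-base match, chrX:42104999-42105028, plus strand: ttatgttcttcttgctctaatTGAATGTgt
Xiap, 7-base match, chrX:42107022-42107051, plus strand: cttagcctaggactcaaggacTGAATGTtt

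The matches differed in where they lay and in how many transcripts carried them. In Bcl2, whose longest 3' UTR has 5086 bases, the 8-base match began 3427 bases after the stop codon, the 7-base matches at 1481 and 1706, and 3 further 6-base matches at 1490, 1816 and 4543. These Bcl2 matches were annotated in 1 of its 2 transcripts with a 3' UTR, and the other transcript held a 7-base match of its own. The Bcl2l11 match lay close to the stop codon, at base 219 of 4218, in 3 of 5 transcripts. Xiap, with a 3' UTR of 4672 bases, held its matches at 36 and 2059 in all 4 transcripts. Bcl2l1 held its match at 604 of 1477 bases in 2 of 4 transcripts. In Mcl1, with a single annotated 3' UTR of 2353 bases, the 7-base match lay at 1709 and the 6-base matches at 490 and 1653. Bcl2l2 held 6-base matches alone, at 794, 2065 and 2092 of 3177 bases. Bak1 (1504 bases), Bad (1026), Bid (1670) and Birc2 (523) held none of these letters, which says only that they are not in these windows. The files count reads per gene, so which of these transcripts the cultures used was not measured.

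**Figure D1:**
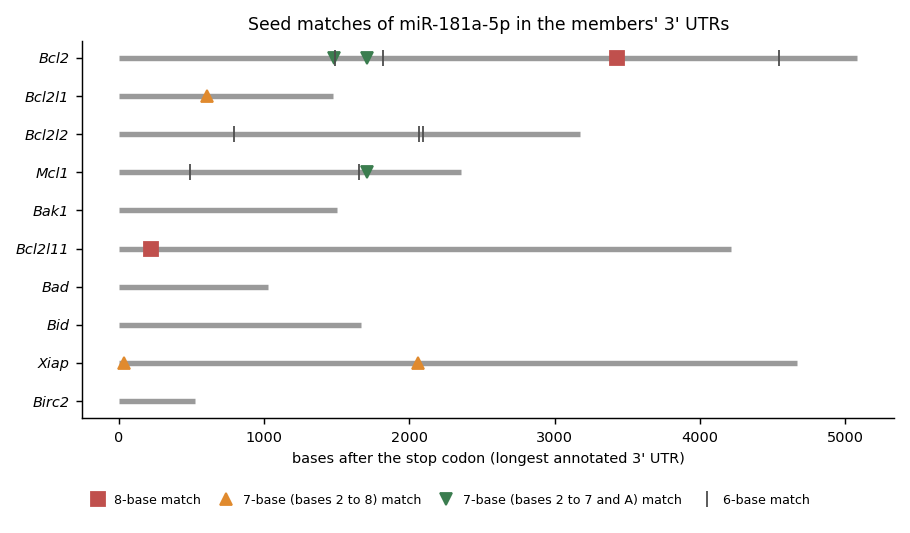
Positions of miR-181a-5p seed matches (symbols, by kind) along the longest annotated 3' UTR of each member (grey bars; x axis in bases after the stop codon). Bcl2 and Bcl2l11 hold an 8-base match, Bcl2l1, Mcl1 and Xiap hold 7-base matches at most, Bcl2l2 holds 6-base matches, and Bak1, Bad, Bid and Birc2 hold none.

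Total counts per sample ranged from 17287168 to 48091231, with control replicate 1 the deepest and the next sample at 28934923, and mitochondrial genes took 3.03% to 3.48% of the counts. Replicates of a group correlated at 0.993 or more in log2 CPM, counts scaled with TMM factors to a common library size. Marker sums showed cultures of neurons with glia. The 8 neuronal markers summed to 6425 to 6652 CPM in control and 6244 to 6425 in mimic, the 5 astrocyte markers to 1965 to 2190 and 1854 to 2051, the 6 oligodendrocyte lineage markers to 309 to 373 and 283 to 325 (Sox10 below 1), and the 6 microglial markers to 13.0 to 13.6 and 12.6 to 13.8, with Cx3cr1 and P2ry12 below 1. The 6 fibroblast and vascular markers summed to 177 to 272 in control and 273 to 361 in mimic, with no overlap, while the endothelial markers were below 1 (Pecam1) or at no more than 3 counts in any sample (Cldn5). Of the markers tested, 1 was called: the glutamate transporter gene Slc17a7, singled out after its values were seen, was lower in mimic (log2 fold change -0.14, edgeR adjusted p = 0.0239). In such mixed cultures, fewer cells of a type and less RNA per cell cannot be told apart.

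The 10 members were first ordered by their level per exon length, as RPKM, counts scaled to library size and exon length. Mcl1 stood highest, and the members spanned a 37.7-fold range in control cultures. Mcl1 was at 33.9 ± 0.898 RPKM (SD, n = 6), Bcl2l1, which encodes BCL-XL, at 24.3 ± 0.401, and Bcl2l2, which encodes BCL-W, at 18.2 ± 0.831. These anti-apoptotic genes were the highest of the 10, above 92.6%, 88.7% and 84.8% of the tested genes, and their ranges did not overlap.

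The middle of the order was close together. Bad, a BH3-only gene whose product binds BCL-XL, was at 8.83 ± 0.323 RPKM and the effector Bak1 at 7.75 ± 0.402. Xiap, the caspase inhibitor on the X chromosome, followed at 7.72 ± 0.165, and Bak1 and Xiap were the 1 pair of neighbours whose control ranges overlapped (7.07 to 8.24 and 7.49 to 7.93). Birc2, which encodes the ubiquitin ligase cIAP1, was at 6.94 ± 0.299 and Bid, the BH3-only gene cleaved by caspase 8, at 5.15 ± 0.215. The level of Bcl2 itself, the founding gene of the family, was 3.25 ± 0.196 RPKM, higher than 48.8% of the tested genes. Bcl2l11, the gene of the BH3-only activator BIM, was last at 0.899 ± 0.0917 RPKM, above 29.3% of the tested genes. The order of the mean levels was the same in mimic. RPKM was computed over all annotated exons of a gene, so a gene that uses short transcripts reads low on this scale.

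**Figure D2:**
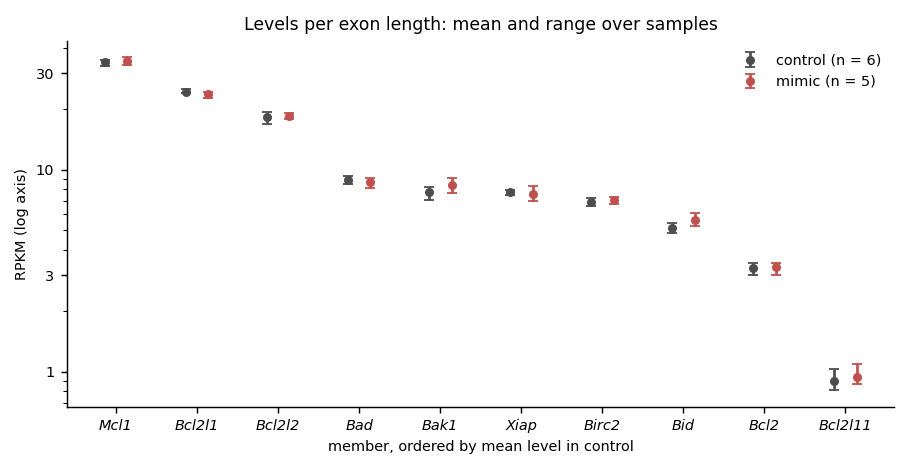
RPKM (log axis) of the 10 members in control (grey, n = 6) and mimic (red, n = 5); points are means and bars span the lowest to the highest sample. Mcl1, Bcl2l1 and Bcl2l2 lie between 16.8 and 35.9 in every sample, Bcl2l11 between 0.812 and 1.09, and Bak1 and Xiap overlap in control.

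The main comparison asked whether 48 h of the mimic altered the RNA of these genes. None of the 10 members passed the threshold (edgeR quasi-likelihood test, adjusted p under 0.05), against 495 of the 17365 genes tested, or 2.85% (307 lower, 1.77%, and 188 higher, 1.08%; with upper-quartile scaling 226 lower and 234 higher). DESeq2, and limma on the authors' normalized table, also called 0 of the 10. At an unadjusted p under 0.05 there were 2 of the 10, Bid and Bak1, both higher in mimic, where 15.7% of all tested genes passed. No member had groups that did not overlap, as 2.89% of the tested genes did. The median log2 fold change of the members was 0.023, with 3 lower and 7 higher, and that of all tested genes was -0.00015. The count of 495 rested on single samples, with 218 without control replicate 1, 237 without mimic replicate 2 and 278 without mimic replicate 4, while the members' count stayed at 0 without each of the 11 samples.

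The intervals around the members' fold changes were narrow. The 95% intervals of the 10 fold changes together ran from -8.11% (Bad) to 17.3% (Bcl2l11), and 8 of the 10 held 0. The spread between control samples, as the SD over the mean, ran from 1.65% in Bcl2l1 to 10.2% in Bcl2l11, the member with the fewest counts. In the following, values per sample are CPM, and fold changes are mimic against control.

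Among the anti-apoptotic genes, Bcl2, the founding gene of the family, had control samples between 27.4 and 31.7 CPM (median 30). Its mimic samples were at 30.3, 31.6, 27.5, 31.1 and 30.2 CPM. The log2 fold change was 0.030 ± 0.0451 (SE; edgeR adjusted p = 0.835), with a 95% interval of -4.24% to 8.88%. Bcl2 was the member with the most seed matches of the 10, and no mimic sample lay outside its control range.

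Mcl1, whose protein is short-lived and replaced by continual synthesis, was at 111 to 120 CPM in control (median 117). In mimic it was at 113, 123, 118, 113 and 123 CPM. The highest mimic samples, replicates 2 and 5, lay above every control sample, and the others lay within the control range. Its log2 fold change was 0.025 (95% interval -2.42% to 6.1%; adjusted p = 0.773).

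Bcl2l1 was at 110 to 114 CPM in control (median 111) and at 110, 104, 112, 111 and 104 CPM in mimic. Mimic replicates 2 and 5 lay below all controls. The log2 fold change, -0.046 ± 0.0278 (SE), was the most negative of the 10, with an interval of -6.91% to 0.747% (edgeR adjusted p = 0.461). Bcl2l2 was at 75.2 to 85.6 CPM in control and 79.4, 85.2, 82.4, 82.6 and 80.3 CPM in mimic, all within the control range. Its log2 fold change of 0.0088 (interval -3.9% to 5.32%; adjusted p = 0.942) changed sign without control replicate 5 or mimic replicate 2. In Bcl2l2, 13.3% of exon bases are shared with an annotated gene on the same strand, Gm20521, which had 0 counts in every sample.

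Of the pore-forming effectors, Bak1 was at 17 to 19.8 CPM in control (median 18.8). Its mimic samples were at 18.4, 19.4, 22, 21.4 and 19.6 CPM, of which replicates 3 and 4 lay above all controls. The log2 fold change was 0.12 ± 0.0523 (SE), an interval of 0.828% to 17%, with an unadjusted p of 0.0308 and an adjusted p of 0.255 (edgeR). The unadjusted p was 0.122 without control replicate 1, the lowest control, 0.0901 without mimic replicate 3 and 0.0956 without mimic replicate 4. Of the exon bases of Bak1, 25.5% are shared with Ggnbp1 on the opposite strand, and a library that keeps no strand cannot tell these reads apart. Ggnbp1 was read at 1.42 to 2.57 CPM over all samples (log2 fold change -0.020).

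The BH3-only gene Bid was at 17.3 to 19.2 CPM in control (median 18.5) and at 19.6, 18.8, 19.9, 21.5 and 19.7 CPM in mimic. All mimic samples lay above the control mean of 18.3 CPM, and 4 of 5 lay above every control sample. The log2 fold change was 0.12 ± 0.0474 (SE), an interval of 1.29% to 15.9%, with an unadjusted p of 0.0214 and an adjusted p of 0.211 (edgeR), so the difference did not pass the threshold. Without mimic replicate 4, the highest sample, the unadjusted p was 0.0902. Bid shares 17.7% of its exon bases with Bcl2l13 on the opposite strand, which was read at 74.4 to 85.7 CPM (log2 fold change -0.026). The fibroblast and vascular marker sum given above was also higher throughout the mimic group and the neuronal sum was no higher than in control, and their part in the values of Bid and Bak1 was not tested.

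Bcl2l11 was at 6.52 to 8.27 CPM in control (median 7.14) and at 8.72, 7.22, 6.98, 7.81 and 7.06 CPM in mimic. Mimic replicate 1 alone lay above the control range. Its log2 fold change was 0.070 ± 0.0782 (SE), with the widest interval of the 10 on the log2 scale, -6.1% to 17.3% (adjusted p = 0.762). Bad was at 21.6 to 23.9 CPM in control (median 22.6) and at 23.2, 23.1, 22.5, 21.3 and 20.8 CPM in mimic, with replicates 4 and 5 below all controls. The log2 fold change of Bad was -0.031 (interval -8.11% to 4.23%; adjusted p = 0.825), and 20.5% of its exon bases are shared with Gpr137 on the opposite strand, read at 48 to 55.7 CPM.

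Of the inhibitors of apoptosis, Xiap was at 70.9 to 75.1 CPM in control (median 73.1) and at 72.1, 73.6, 67.8, 66.4 and 78.2 CPM in mimic. Mimic replicates 3 and 4 lay below all controls and replicate 5 above all controls, so the mimic group spread more widely (SD 4.74 CPM) than the control group (SD 1.56 CPM). The difference between these SDs was not tested. The log2 fold change was -0.030 (interval -6.89% to 2.98%; adjusted p = 0.773) and 0.0010 without mimic replicate 4. Birc2 was at 30.1 to 33.3 CPM in control (median 32.0) and at 31.9, 33.4, 30.9, 32.6 and 32.7 CPM in mimic, with a log2 fold change of 0.020 (interval -4.02% to 7.15%; adjusted p = 0.877).

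**Figure D3:**
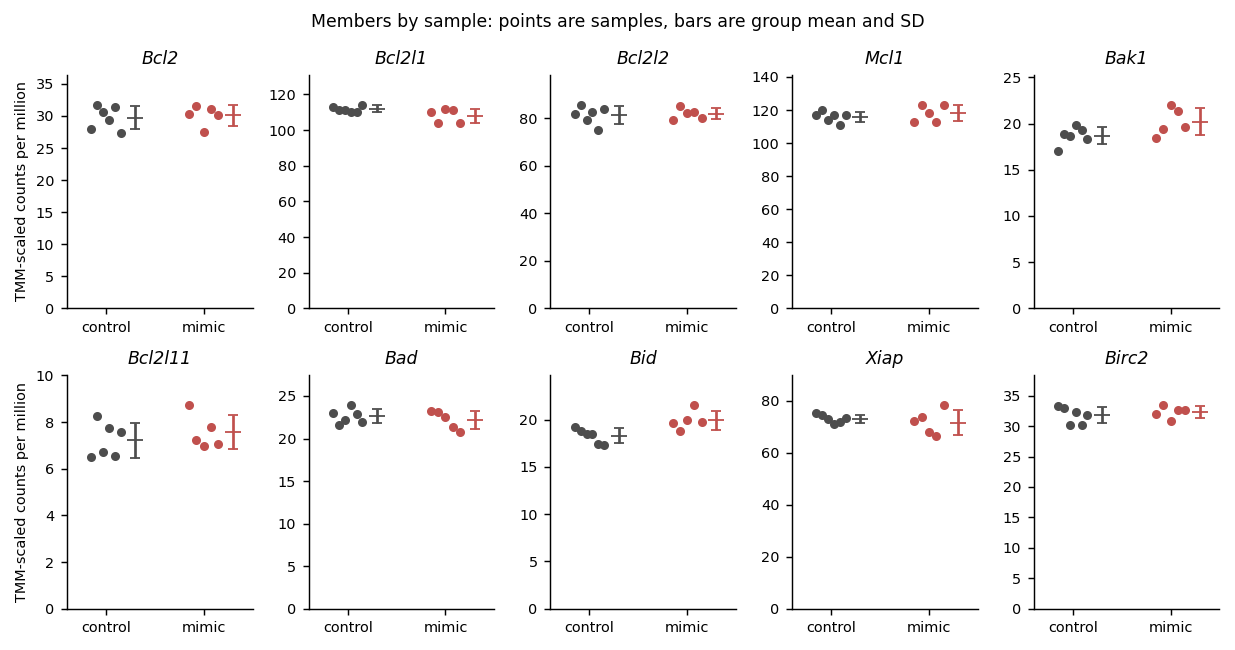
TMM-scaled CPM of each member in every control (grey, n = 6) and mimic (red, n = 5) sample, in replicate order, with the group mean and SD beside the points; y axes start at 0. The groups overlap in all 10 panels, and Bid has 4 of 5 mimic samples above every control sample.

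The members were next set beside all tested genes with the same kind of match. Of the 900 genes with an 8-base match, 5.78% were called lower and the median log2 fold change was -0.036. The share called lower was 3.78% of the 2698 genes with 7-base matches at most (median -0.017), 2.25% of the 2000 genes with 6-base matches at most (median -0.0014) and 1.07% of the 8914 genes with none (median 0.0095). Genes with longer matches also had longer 3' UTRs, with a median of 2846 bases for an 8-base match and 893 for none, and the part of length in these shares was not tested.

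Neither Bcl2 nor Bcl2l11 lay below the median of the genes with an 8-base match, at 0.030 and 0.070 against -0.036, but the interval of each held that median. Bcl2l1 and Xiap lay below the median of the 7-base genes and Mcl1 above it, and that median was within each of their intervals, so the data do not separate these members from genes of their kind. Over the members the median log2 fold change was 0.025 for the 5 with a match of 7 or 8 bases and 0.020 for the 5 without.

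Against the 1016 tested genes of the study's predicted miR-181a-5p targets, of which 6.99% were called lower and whose median was -0.035, the 4 predicted members lay in the middle or upper part. Of the predicted targets, 53% had a lower log2 fold change than Xiap, 83.4% than Mcl1, 84.4% than Bcl2 and 91.4% than Bcl2l11. The mimic itself was not measured in these poly(A) libraries, and proteins were not measured in these files, so an effect on translation would not be seen here.

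**Figure D4:**
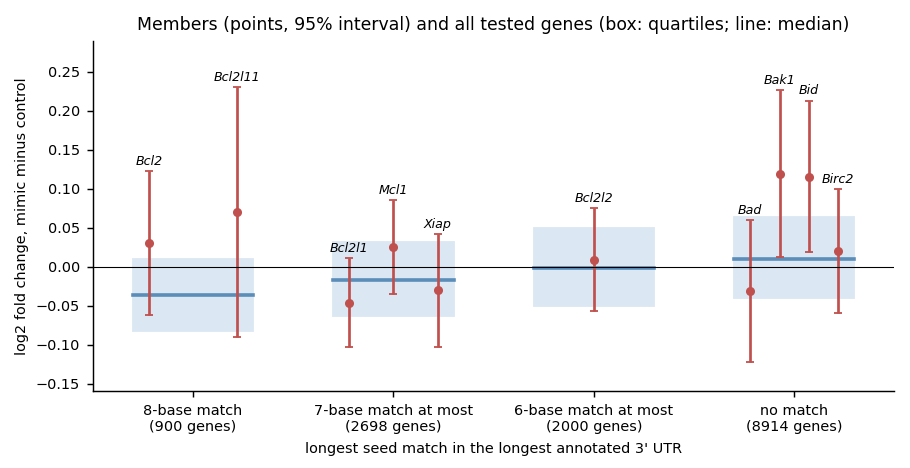
Log2 fold change (y axis, mimic minus control) by the longest seed match in the 3' UTR (x axis). Boxes span the quartiles of all tested genes of each kind with the median as a line, and red points are members with 95% intervals. The medians of all genes run from -0.036 for 8-base matches to 0.0095 for no match, while Bcl2 (0.030) and Bcl2l11 (0.070) lie above the median of their kind.

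Beyond the 10 members, a list of 43 other apoptosis genes was read, of which 32 passed the filter. Of these 32, 1 was called lower (Birc6) and 1 higher (Casp2), against 1.77% and 1.08% of all tested genes. Their median log2 fold change was 0.066, with 12 below 0 and 20 above. DESeq2, and limma on the normalized table, called Birc6 alone. At an unadjusted p under 0.05 there were 7 of the 32, where 15.7% of all tested genes passed. Of the 17365 genes tested, 8698 had a log2 fold change below 0 and 8667 above. The counts by group given below stand beside the same shares, and no group was tested against them.

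Birc6 encodes a very large inhibitor of apoptosis and ubiquitin-conjugating enzyme. It was at 291 to 323 CPM in control (median 316) and at 287, 288, 292, 298 and 282 CPM in mimic. Control replicate 2, at 291 CPM, lay among the mimic samples, and all other control samples lay above them. In mimic Birc6 fell by 7.68% (log2 fold change -0.12 ± 0.0265 SE, edgeR adjusted p = 0.0151), and the call held without each of the 11 samples (adjusted p 0.00316 to 0.0485). It was lost in edgeR with a replicate block on the label numbers (log2 fold change -0.101, adjusted p = 0.0541). Birc6 was a predicted miR-181a-5p target with a 3' UTR of 2301 bases that held an 8-base match at 2040 and a 7-base match at 1642, both in 2 of 4 transcripts. The same 3' UTR also held 1 copy of the 7-base match of the control oligonucleotide, which 3.36% of the tested genes held. The neuronal marker sum (6425 to 6652 CPM in control, 6244 to 6425 in mimic) and the fibroblast and vascular marker sum (177 to 272 and 273 to 361) moved with the mimic group as well, and their part in the Birc6 values was not tested. The sites of the called apoptosis genes, Birc6 here and Casp2 after it, are shown as for the members.
Birc6, 8-base match, chr17:74703066-74703095, plus strand: atgccaaacatttgggcctcTGAATGTAtc
Birc6, 7-base match, chr17:74702667-74702696, plus strand: accttaggaaagaatggttacTGAATGTtt

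Casp2, the gene of an initiator caspase, was at 17.3 to 18.5 CPM in control (median 17.6) and at 20.9, 19.7, 19.4, 18.5 and 20.8 CPM in mimic. Mimic samples other than replicate 4 lay above all controls. In mimic it rose by 11.9% (log2 fold change 0.16 ± 0.0457 SE, edgeR adjusted p = 0.0494), close to the threshold. Of the fits that left out 1 sample, only those without control replicate 2 and without mimic replicate 4 kept the call, and the adjusted p ran from 0.0363 to 0.126. DESeq2 gave an adjusted p of 0.0542. The neuronal and the fibroblast and vascular marker sums moved with the group here too, and their part was not tested. Casp2 was not among the predicted targets, but its longest 3' UTR, of 2031 bases, held a 7-base match to bases 2 to 8 at 1621, in 1 of 2 transcripts, so a match was present in the gene called higher as well as in the gene called lower.
Casp2, 7-base match, chr6:42282077-42282106, plus strand: ctggcacttactaggtcttcaTGAATGTtt

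The genes around the members gave the following values. The effector Bax, the partner of Bak1, was at 34.2 ± 2.22 CPM in control (SD, n = 6) and 34.0 ± 2.25 in mimic (SD, n = 5), with a log2 fold change of -0.016 (adjusted p = 0.923, edgeR) that changed sign without control replicate 1 or mimic replicate 5. The other effector listed, Bok, named after its values were seen, was at 3.57 to 4.69 CPM in control (median 4) and at 3.65, 3.08, 3.95, 2.99 and 2.89 CPM in mimic. All 5 mimic samples of Bok lay below the control mean of 4.05 CPM and 3 lay below every control sample. Its log2 fold change was -0.31 ± 0.1 (SE), an interval of -29.9% to -6.71%, with an adjusted p of 0.101 (edgeR), which did not pass the threshold, and it was the 1 of these 2 effectors at an unadjusted p under 0.05. Bbc3, which encodes the p53-induced BH3-only protein PUMA, had a log2 fold change of 0.15 ± 0.106 (SE; adjusted p = 0.561). In the BH3-only group 4 of 5 listed genes were tested and 0 called by edgeR, DESeq2 or limma (1 at an unadjusted p under 0.05). All 4 log2 fold changes were above 0, as were those of 8667 of the 17365 genes tested.

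Of the apoptosome and caspase genes all 8 were tested, 7 had a log2 fold change above 0, and Casp2 was the 1 called. Casp9 and Apaf1, which together build the apoptosome, had log2 fold changes of 0.068 (adjusted p = 0.5) and 0.063 (adjusted p = 0.356). Diablo, which encodes SMAC, the antagonist of XIAP, was at 0.027 (adjusted p = 0.821), and 40.9% of its exon bases are shared with other annotated genes.

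The remaining groups held no call beyond Birc6: 4 of 8 other inhibitor of apoptosis genes, 3 of 3 antagonists of such inhibitors, 4 of 5 distant BCL2 relatives and 7 of 8 death receptor and adaptor genes were tested. In these groups the count at an unadjusted p under 0.05 was 2, 0, 0 and 1 in that order, where 15.7% of all tested genes passed. The 11 genes that did not pass the filter had at most 10 counts in any sample. Among them were the other anti-apoptotic genes listed, Bcl2l10, Bcl2a1a, Bcl2a1b and Bcl2a1d, at most 2 counts each in any sample. The members Bcl2, Bcl2l1, Bcl2l2 and Mcl1 were thus the anti-apoptotic BCL2 genes named here that passed the filter in these mixed cultures. The Bcl2a1 and Naip genes are near-identical copies whose reads may be shared, and their counts are uncertain.

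**Figure D5:**
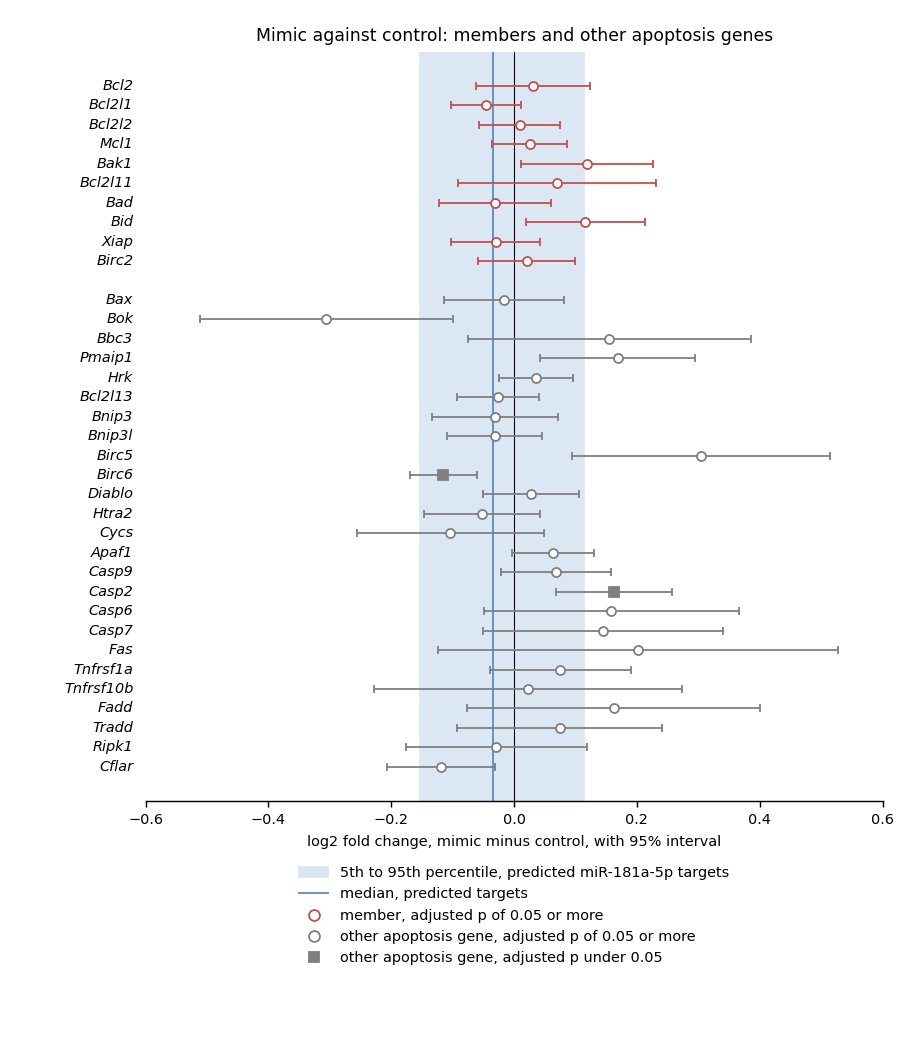
Log2 fold change with 95% interval (x axis, mimic minus control) of the 10 members (red) and of 25 of the tested other apoptosis genes, each with at least 1 CPM in control (grey); filled squares have an adjusted p under 0.05. The blue band spans the 5th to the 95th percentile of predicted miR-181a-5p targets (-0.15 to 0.11) and the blue line their median (-0.035). Birc6 and Casp2 are the squares, and the members lie between -0.046 and 0.12.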

How the data were processed

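Poly(A) libraries (TruSeq v2, which keeps no strand) were sequenced single-end. The authors mapped reads to mm10 with STAR 2.5.2b, counted them per gene with featureCounts (Subread 1.5.1), and deposited raw counts for each of the 11 samples and a normalized signal table, which held the counts divided by 1 factor per sample. Strand and multi-mapping options are not given in the sources used here. The limit of a count of 0 (3 counts) was 0.0624 to 0.174 CPM, for counting error only.

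Counts were tested with edgeR 4.0.16 (TMM, robust quasi-likelihood, two-sided, Benjamini-Hochberg over 17365 genes), limma 3.58.1 on log2(value + 1) and DESeq2 1.42.0, the study's tool, being alternatives. Scripts were tested on simulated data. GENCODE M21 (GRCm38) gave exons and 3' UTRs. The members and lists were chosen with earlier results of these data known. All 10 members were described, and, of the other apoptosis genes, those called and a fixed set (Bax, Bbc3, Casp9, Apaf1, Diablo and 1 gene that is not reported here), and markers as sums. Replicates of a group differed by more than sampling noise (chi-square per degree of freedom at least 1.23), so each was counted as 1 sample.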

Additional observations from a re-analysis of the deposited data

Results flagged for a closer look

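Birc6 in control replicate 2 stood apart from the other controls, at a log2 CPM of 8.19 against 8.3 to 8.33. The gap to its nearest neighbour was 0.76 of the range of the group, above the critical value of 0.625 for 6 samples. Without that sample the log2 fold change of Birc6 was -0.13 (edgeR adjusted p = 0.00316), and the cause was not tested. Of 38 sets of values examined (each named gene and the total counts, in each group), this was the 1 flagged, where chance gives about 1 in 20. No member had such a sample.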

How the results depend on the processing

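None of the 10 members was called in any of the 19 alternatives, and the lowest adjusted p of a member was 0.153 (Bak1 without mimic replicate 1). Of 190 member values, 187 kept their direction. The others were Bcl2l2 (-0.00998 to 0.0293 when single samples were left out) and Xiap (-0.0606 to 0.00103). Bax ran from -0.0442 to 0.0212. The 495 genes called became 785 with no count filter, and 218 to 491 when 1 sample was left out. The 2 other apoptosis genes became 1 with DESeq2, 1 with no count filter, 1 in the normalized table (pseudocount 1 or 0.5) and 1 to 2 when 1 sample was left out. Birc6 kept its call in all of these. With a replicate block on the label numbers, which left out control replicate 6, 328 genes and 0 other apoptosis genes were called (Birc6 adjusted p = 0.0541, Casp2 0.106). Same-numbered samples deviated together no more than other pairs did (correlation -0.0232 to 0.0158 against -0.0728 to 0.0781). This gave no sign that the numbers pair the samples. It does not exclude pairing, because a shared preparation that altered few genes could go unseen. With all annotated 3' UTRs, 5 members held a match of 7 or 8 bases, as with the longest. Causes were not tested. Depth limits Bcl2l11 most, with 112 to 310 counts.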
